A study of Homo sapiens with 2 samples.

Results

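The nuclear genes of the mitochondrial respiratory chain were examined for GATA1 ChIP signal in Meg-01 cells. Members were the genes that the array annotation names with a symbol for a subunit of complexes I to V or for a COX-named or NDUF-named factor (symbols starting with NDUFA, NDUFB, NDUFC, NDUFS, NDUFV, UQCR, COX and a digit, or ATP5, and SDHA to SDHD). The annotation named 17280 genes, and 84 of them were members, 34 on the array called chIP1 and 50 on the array called chIP2. All 84 had at least 1 window of 3 adjacent probes, as did 17054 of all genes. By symbol, 38 members belonged to complex I, 4 to complex II, 6 to complex III, 19 to complex IV and 16 to complex V. The remaining member, COX4NB, matches the symbol rule as the neighbor of COX4I1 and is not a respiratory chain gene. Without it, the number of members with an enriched window stayed at 38.

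The Meg-01 line is an established human megakaryoblastic leukemia line, and the cells were untreated parental cells, not the GATA1 knockdown clones of the same study. Formaldehyde-fixed, sonicated chromatin from a common preparation was pulled down with the antibody GATA1 (C-20), raised against the C-terminus, or with normal goat IgG. After linker ligation and amplification, the GATA1 IP DNA was labeled with Cy5 and the IgG DNA with Cy3, and both were hybridized together on a set of 2 promoter arrays. The comparison asks where GATA1 IP DNA exceeded the background pull-down at promoters. The arrays carry different genomic probes, so each probe was read once (1 hybridization), without replicates or swapped dyes. No test between groups was therefore possible, no error between samples can be given, and the shares and medians below are descriptions, to be read against the values over all genes. The arrays measure DNA and not RNA, so the identity of the cells could not be checked against marker transcripts.

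Complexes I to IV of the inner mitochondrial membrane pass electrons from NADH and succinate to oxygen. Complexes I, III and IV pump protons, and complex V, the ATP synthase, uses the proton gradient to make ATP. Most of the subunits are encoded in the nucleus, at CpG-rich promoters known for the factors NRF1, GABPA (an ETS factor, part of NRF2), YY1 and SP1. GATA1 is the zinc finger factor of the erythroid and megakaryocytic lineages, which binds the sequence WGATAR and is needed for the maturation of red cells and platelets.

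The promoters of 6 members are shown beside the values, chosen after these were seen. COX7C, COX5B and NDUFA7 had the highest mean ratios around the start, ATP5J had the highest window of complex V in a window it shares with GABPA, and COX7B2 and NDUFA1 had the lowest mean ratios around the start. The 250 bases before the start are given in the direction of the gene, from RefSeq on GRCh38.p14, and were joined to the array genes by accession. Capitals mark matches on either strand to the GATA motif (TGATAA or TGATAG, or with a leading A AGATAA or AGATAG), NRF1 (CGCATGCG), ETS (CCGGAAG), YY1 (AAGATGGC) and SP1 (GGGCGG).
COX7C (chr5:86617691-86617940, plus strand): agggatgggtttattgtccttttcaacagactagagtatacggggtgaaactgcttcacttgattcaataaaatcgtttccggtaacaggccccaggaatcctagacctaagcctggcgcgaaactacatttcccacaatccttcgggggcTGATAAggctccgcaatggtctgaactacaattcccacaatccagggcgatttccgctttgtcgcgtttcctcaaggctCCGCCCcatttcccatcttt
COX5B (chr2:97645812-97646061, plus strand): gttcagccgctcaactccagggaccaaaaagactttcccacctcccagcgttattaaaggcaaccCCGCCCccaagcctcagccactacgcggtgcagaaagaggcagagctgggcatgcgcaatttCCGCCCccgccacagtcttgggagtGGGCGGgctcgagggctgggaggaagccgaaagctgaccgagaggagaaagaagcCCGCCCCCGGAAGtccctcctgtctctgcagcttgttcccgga
NDUFA7 (chr19:8321376-8321625, minus strand): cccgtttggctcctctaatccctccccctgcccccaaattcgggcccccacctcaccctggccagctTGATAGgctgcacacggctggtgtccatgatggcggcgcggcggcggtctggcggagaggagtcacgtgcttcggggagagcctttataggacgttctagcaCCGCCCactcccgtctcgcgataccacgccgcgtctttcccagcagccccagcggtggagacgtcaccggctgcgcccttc
ATP5J (chr21:25735055-25735304, minus strand): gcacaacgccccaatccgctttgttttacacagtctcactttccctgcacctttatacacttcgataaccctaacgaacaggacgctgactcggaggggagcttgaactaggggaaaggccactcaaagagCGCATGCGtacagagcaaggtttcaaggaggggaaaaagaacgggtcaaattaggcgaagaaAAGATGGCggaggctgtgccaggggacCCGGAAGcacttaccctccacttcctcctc
COX7B2 (chr4:46909246-46909495, minus strand): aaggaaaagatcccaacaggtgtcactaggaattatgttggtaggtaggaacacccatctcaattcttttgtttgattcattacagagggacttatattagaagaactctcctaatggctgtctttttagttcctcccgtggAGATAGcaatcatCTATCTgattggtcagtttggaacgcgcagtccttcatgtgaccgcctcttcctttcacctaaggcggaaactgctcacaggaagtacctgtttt
NDUFA1 (chrX:119871582-119871831, plus strand): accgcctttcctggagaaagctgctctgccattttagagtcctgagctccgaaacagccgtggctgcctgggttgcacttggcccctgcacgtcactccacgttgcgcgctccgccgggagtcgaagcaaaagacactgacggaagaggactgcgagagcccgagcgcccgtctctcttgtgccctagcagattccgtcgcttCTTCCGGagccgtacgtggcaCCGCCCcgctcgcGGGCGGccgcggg
The COX7C promoter holds 1 GATA match, TGATAA at -99 from the start, and NDUFA7 holds 1, TGATAG at -183. COX7B2, the member with the lowest start value, holds 2, at -108 and -95. COX5B, NDUFA1 and ATP5J hold none in these 250 bases. In ATP5J the NRF1, YY1 and ETS letters lie at -119, -57 and -30. In COX5B the ETS match at -37 directly follows an SP1 match at -43. A match is only a run of letters and not a measured binding site.

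Each value is log2 of the IP over the IgG intensity with the array median set to 0, so 1 means 2-fold toward the IP. The arrays held 237210 and 237201 genomic probes, and the median raw IP signal of 543 and 544 stood against 342 and 340 for negative control spots. The 2395 control probes present once on each array correlated across probes with r = 0.981, and the SD of their difference was 0.19, so gaps between values under about 0.19 do not separate genes. This figure covers hybridization and scanning and leaves out the immunoprecipitation. The array coordinates below are on a build not given in the sources used here, and were not mixed with GRCh38.

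A window was called enriched when the mean of its 3 probes was at least 1 and IgG-side when it was at most -1. Among the 84 members, 38 (45.2%) had an enriched window, against 57.1% of all genes. An IgG-side window was present in 27 members (32.1%), against 52.9% of all genes. Both kinds were present in 12 members, and 31 (36.9%) had neither, against 21.3% of all genes. The median of the highest windows was 0.98, with quartiles of 0.71 and 1.28, and that of all genes was 1.09. The median of the lowest windows was -0.69, and that of all genes was -1.05. The highest windows ranged from 0.07 at SDHD, a membrane anchor of complex II, to 2.03 at COX6B2, the testis form of a complex IV subunit. In total, 108 of 1420 member windows were enriched (7.61%, against 7.63% over all genes) and 65 were on the IgG side (4.58%, against 9.58%).

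A highest window depends on how many windows a gene has and how bright they are, and the members differed from all genes in both. Their median number of windows was 18, against 23, and their median intensity stood at percentile 74.9. Among genes brighter than the median of all genes, 51.9% had an enriched and 32.7% an IgG-side window, and of the 66 members there 45.5% and 28.8% did. Among the dimmer genes the shares were 62.3% and 73.1% of all genes, and 44.4% of the 18 members for each kind. Of the genes with 16 windows or fewer, 38.1% of all genes and 34.2% of the 38 members had an enriched window, and with 17 to 23 windows 53.6% and 44.8% of the 29 members did. With 24 to 31 windows the shares were 62.5% and 69.2% (13 members), and with 32 or more they were 76.2% and 75% (4 members). The part of probe number and brightness in the share of members with an enriched window was not tested further.

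**Figure D1:**
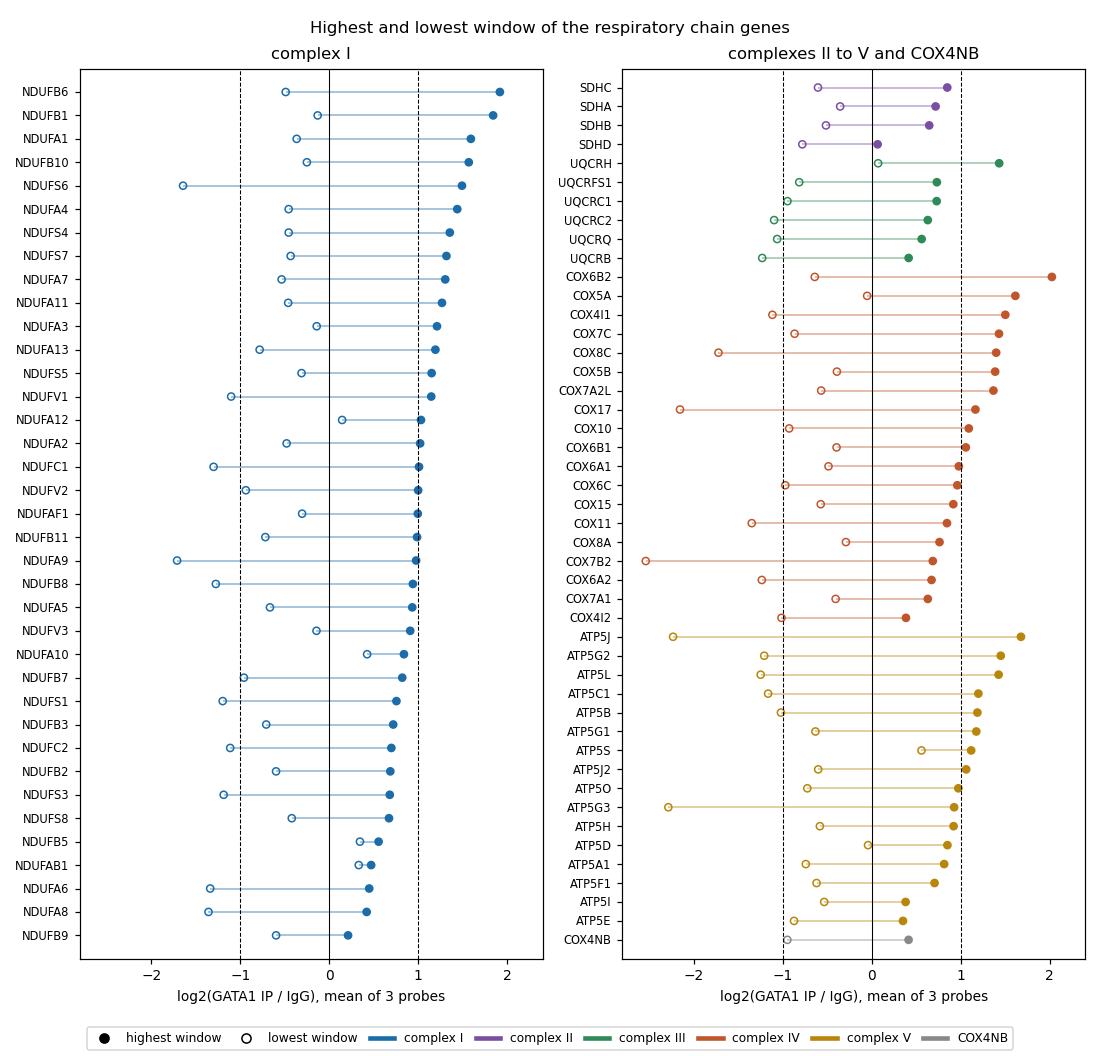
Highest window (filled) and lowest window (open) of 83 of the 84 genes, as log2(GATA1 IP / IgG) of 3 probes, with 0 as a solid line and 2-fold (-1 and 1) as dashed lines, ordered by complex and by highest window. COX6B2 (2.03) and NDUFB6 (1.92) lead the genes drawn by highest window, and COX7B2 (-2.54), ATP5G3 (-2.28) and ATP5J (-2.23) had the lowest windows. All 4 complex II genes lay between the dashed lines.

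The start level of a gene is the mean of its probes within 500 bp of the annotated start. Its median was 0.42 over the 84 members, with quartiles of 0.22 and 0.64, and 0.29 over the 16644 genes with such probes. It was above 0 in 72 members (85.7%), against 73.8% of all genes, and at least 1 in 6 members (7.14%), against 8.00%. The difference of the medians, 0.12, fell to 0.04 with loess normalization on intensity and rose to 0.23 with normexp background correction. Of 349 windows centered within 500 bp of a member's start, 40 were enriched (11.5%, against 10.4% over all genes) and 4 were on the IgG side (1.15%, against 4.13%). The IP side thus held 90.9% of the start windows past 2-fold, against 71.5% over all genes. All 4 windows on the IgG side belonged to COX7B2.

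The highest window lay within 500 bp of the start in 37 members (44.0%), against 30.0% of all genes. Among genes whose highest window was enriched, this held for 17 of 38 members (44.7%) and for 26.5% of all genes. By distance, the median of the members was 0.41 in the 500 bp before the start and 0.40 in the 500 bp after it, against 0.30 and 0.26 over all genes. In the 500 bp after the start, 73 of the 81 members with a probe there were above 0 (90.1%), against 72.0% of all genes. From 500 to 1000 bp inside the gene the members had a median of 0.28, against 0.10. From 1500 to 2000 bp inside, the median was -0.25 over 51 members, against -0.08. From -4000 to -3000 bp the median was 0.33 over 34 members, of which 21 were above 0, against -0.19 over all genes. The bins on either side did not share this. From -6000 to -4000 bp the median was -0.09 over 35 members (12 above 0), against -0.19. From -3000 to -2000 bp it was -0.08 over 37 members (17 above 0), against -0.175. Over all genes the median was also highest next to the start, and after the median trend of all probes was taken out the members' start level was 0.15, against 0.03 over all genes.

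**Figure D2:**
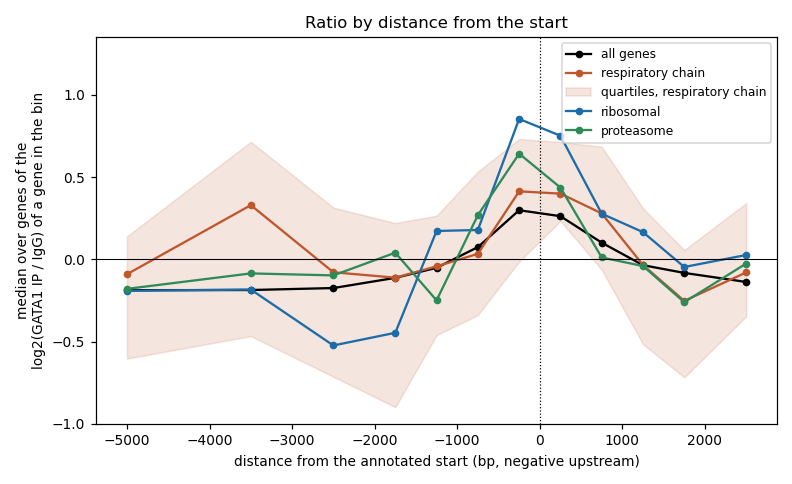
Median over genes of the log2(GATA1 IP / IgG) in bins of distance from the annotated start (bp, negative upstream), for respiratory chain genes (shaded quartiles), ribosomal protein genes, proteasome genes and all genes. In the 500 bp before the start the medians were 0.41, 0.85, 0.64 and 0.30.

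Other housekeeping families set beside the members were the cytosolic ribosomal protein genes (80 genes) and the proteasome subunit genes (38 genes). The median start level was 0.78 over the ribosomal genes and 0.60 over the proteasome genes, above the 0.42 of the respiratory chain. Start levels of at least 1 were found in 33.3% of the ribosomal genes with a start probe and 21.1% of the proteasome genes, against 7.14% of the members. Enriched start windows made up 29.0% in the ribosomal and 20.7% in the proteasome genes, against 11.5% in the members. An enriched window anywhere was present in 62.5% and 60.5% of these families. The respiratory chain was the lowest of these 3 families in each of these quantities, with no test of the differences. The ribosomal genes were also brighter, with a median intensity percentile of 91.1, and the proteasome genes stood at 71.3, near the 74.9 of the members.

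**Figure D3:**
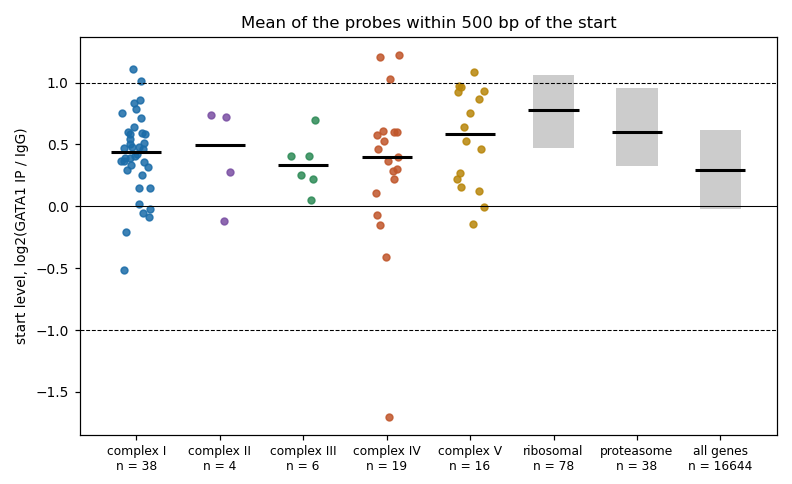
Start level, the mean log2(GATA1 IP / IgG) of the probes within 500 bp of the start, for each gene of complexes I to V (points, spread sideways at random) with the median as a bar, and for ribosomal, proteasome and all genes as the median with a gray box from the lower to the upper quartile. The medians of complexes I to V were 0.44, 0.50, 0.33, 0.40 and 0.59, and COX7B2 lay alone at -1.70.

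Complex I takes electrons from NADH. Of its 38 members, 19 had an enriched window (57.1% of all genes) and 11 an IgG-side window (52.9% of all genes), and the median highest window was 1.00, against 1.09. The 7 core subunits carry the flavin and iron-sulfur centers, and 4 of them had an enriched window. The core subunit NDUFV1, which binds NADH, had the highest start level of the 7, 0.86 ± 0.27 (SD over 4 probes), and NDUFS7 had the lowest, -0.09 ± 0.32 (SD over 5 probes).

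The 30 accessory subunits of complex I do not carry redox centers and serve assembly, stability or regulation. Of them, 15 had an enriched window (50%, against 57.1% of all genes) and 7 an IgG-side window (23.3%, against 52.9%). The median start level was 0.47, with 27 of 30 above 0 (90%, against 73.8% of all genes). The 14 genes named NDUFA (NDUFAB1, the acyl carrier protein, included) and the 10 named NDUFB differed in their counts, with an enriched window in 8 and in 3. Of the start windows, 7 of 54 were enriched in the NDUFA genes (13.0%) and 0 of 41 in the NDUFB genes, against 10.4% over all genes. None of the 41 was on the IgG side either, against 4.13%. The highest window of NDUFB11, centered at 239 bp, was just under the threshold at 0.988, and adjacent windows share probes. Start levels were above 0 in 12 of the 14 NDUFA and 9 of the 10 NDUFB genes (85.7% and 90%). Their medians were 0.48 and 0.38, against 0.29 over all genes. The 3 NDUFB genes with an enriched window had it away from the start. NDUFB6 reached 1.92, with single probes of 1.14, 2.84 and 1.78 at chr9:32545064-32545792, centered 17614 bp inside the gene. NDUFB1 reached 1.84 (probes 1.95, 1.86 and 1.72) at chr14:91653562-91654257, 4124 bp inside, while its start level was -0.02 ± 0.26 (SD over 4 probes). NDUFB10, named for this count only, reached 1.57 at 1713 bp inside.

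NDUFA7 was the complex I gene with the highest start level, 1.11 ± 0.41 (SD over 4 probes). Its single probes were 1.49 at -99 bp, 1.15 at 25 bp, 1.27 at 167 bp and 0.53 at 361 bp, so 3 of the 4 were past 2-fold. Its highest window, 1.30 at chr19:8292077-8292387, is shared with RPS28, a ribosomal protein gene on the other side of the start. The only other complex I gene with a start level of at least 1 was NDUFS6, a zinc-binding accessory subunit, at 1.01 ± 0.64 (SD over 6 probes). NDUFA1, a small X-linked accessory subunit, showed the opposite pattern, with a start level of -0.51 ± 0.19 from 2 probes, -0.38 at -311 bp and -0.65 at -197 bp. Its highest window, 1.59 with probes of 1.92, 1.74 and 1.12 at chrX:118786255-118786565, lay at -1222 bp and is shared with the neighboring gene RNF113A. NDUFA4, placed in complex I by its symbol but known as a subunit of complex IV and named COXFA4 in RefSeq, had a start level of -0.21 ± 0.37 (SD over 6 probes) and an enriched window of 1.44 at 2004 bp inside the gene, while the highest was 0.53 with normexp. NDUFB9 had the lowest highest window of the complex, 0.21 over 7 windows. The assembly factor NDUFAF1 had a highest window of 0.9962, just under the threshold, and a start level of -0.05 ± 0.46 (SD over 5 probes).

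Complex II, the succinate dehydrogenase, also serves the citric acid cycle and is the only complex encoded wholly in the nucleus. None of its 4 genes had a window past 2-fold on either side, over 61 windows in total. The catalytic subunits SDHA (flavin) and SDHB (iron-sulfur) had highest windows of 0.72 and 0.65, both at the start. Their start levels of 0.72 ± 0.35 (SD over 3 probes) and 0.74 ± 0.35 (SD over 4 probes) did not differ beyond the spread of their probes. The membrane anchor SDHC had a highest window of 0.85 at -4211 bp. SDHD, the other anchor, had the lowest highest window of all members, 0.07 over 5 windows, shared with TIMM8B, and a start level of -0.12 from 2 probes of 0.45 and -0.69. Over all genes 57.1% had an enriched and 52.9% an IgG-side window, and no test was made on 4 genes.

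Complex III passes electrons from ubiquinol to cytochrome c. Of its 6 members only UQCRH had an enriched window (16.7%, against 57.1% of all genes). An IgG-side window was present in 3, UQCRB, UQCRC2 and UQCRQ (50%, against 52.9% of all genes). UQCRH, the hinge subunit, reached 1.43 with single probes of 1.16, 1.88 and 1.26 at chr1:46480941-46481214, at -320 bp, in the promoter it shares with LRRC41. Its start level of 0.70 ± 0.75 (SD over 6 probes) fell from 1.88 at -320 bp to -0.19 at 101 bp. None of its 11 windows was below 0. The core subunit UQCRC1 and the Rieske iron-sulfur protein UQCRFS1 had highest windows of 0.73 each, and UQCRB had the lowest, 0.42. All 6 start levels were above 0 (against 73.8% of all genes), from 0.05 at UQCRFS1 to 0.70 at UQCRH.

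Complex IV, the cytochrome c oxidase, reduces oxygen, and 10 of its 19 members had an enriched window (52.6%, against 57.1% of all genes) and 7 an IgG-side window (36.8%, against 52.9%). The 8 nuclear-encoded subunits of general use and the 6 tissue-restricted isoforms are given side by side here, with no test of their difference. All 8 general subunits had a start level above 0 (against 73.8% of all genes), with a median of 0.52. Of their 30 start windows, 11 were enriched (36.7%, against 10.4% over all genes). Adjacent windows share probes, and most of the enriched ones lay at COX5B, COX7C and COX6B1. The rest lay at COX5A, and COX6C, COX8A, COX6A1 and COX4I1 had none at the start. In the order of start levels, COX7C (1.22 ± 0.40, SD over 5 probes), COX5B (1.21 ± 0.23, SD over 7 probes) and COX6B1 (1.03 ± 0.32, SD over 3 probes) led, and their gaps were within the spread of their probes. COX6C (0.58), COX8A (0.46), COX5A (0.40), COX6A1 (0.37) and COX4I1 (0.28) followed.

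COX7C, a small subunit of the oxidase, had single probes of 0.63 at -386 bp, 1.18 at -251 bp, 1.74 at -16 bp, 1.30 at 155 bp and 1.26 at 354 bp. The ratio at 572 bp was 0.08, so the IP side ended there. COX5B had a ratio of at least 0.82 at all 7 probes from -496 to 473 bp, with the highest, 1.52, at 25 bp. Of its 20 windows 7 were enriched, and the highest was 1.39 at chr2:97721041-97721336. COX6B1 had a highest window of 1.06, with probes of 1.34, 1.05 and 0.79 at chr19:40831060-40831668, and fell to 0.87 with loess. COX5A and COX4I1 had their highest windows inside the gene. COX5A reached 1.62, with probes of 1.00, 1.63 and 2.22, centered 740 bp after the start. COX4I1 reached 1.503 at 4192 bp with probes of 2.82, 0.15 and 1.54, so a single low probe lay between 2 high ones, and its start level of 0.28 ± 0.18 (SD over 3 probes) was under 2-fold.

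**Figure D4:**
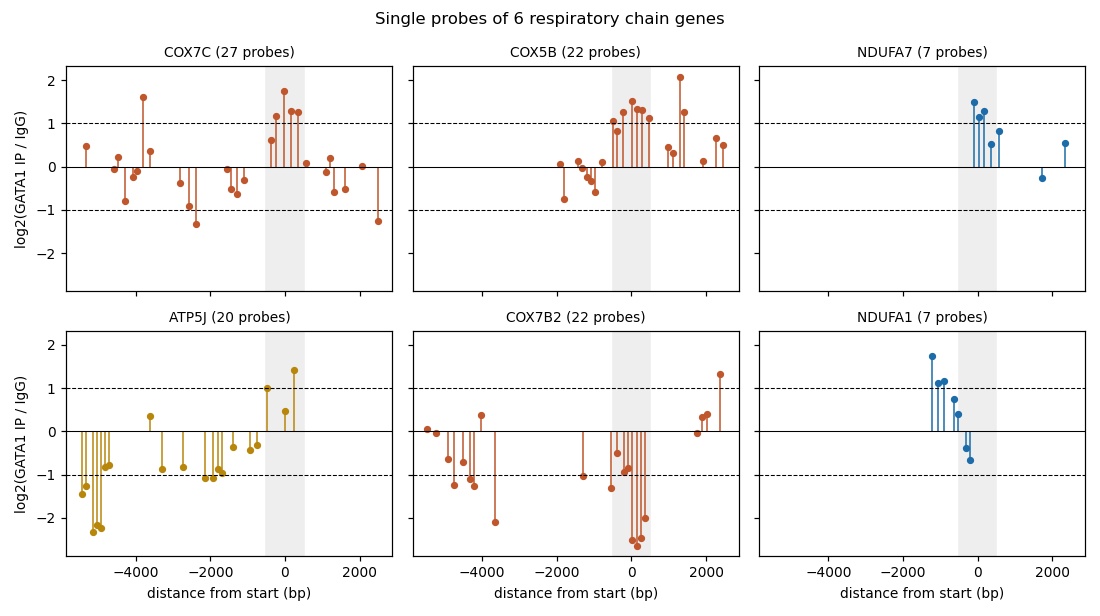
Single probes of COX7C, COX5B, NDUFA7, ATP5J, COX7B2 and NDUFA1, as log2(GATA1 IP / IgG) against distance from the annotated start (bp, negative upstream), with 2-fold as dashed lines and the 500 bp on each side of the start in gray. The upper 3 genes rise past 1 in the gray region, and COX7B2 falls to -2.64 at 150 bp.

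The tissue-restricted isoforms replace general subunits in heart and muscle (COX6A2, COX7A1), lung (COX4I2) or testis (COX6B2, COX7B2, COX8C). Their median start level was 0.07, with 3 of 6 above 0 (50%, against 73.8% of all genes). Of their 23 start windows 0 were enriched, against 10.4% over all genes. Away from the start, COX6B2 and COX8C had an enriched window (33.3% of the isoforms, against 57.1% of all genes). Windows past the threshold on the IgG side were seen in 4 of the 6 isoforms (66.7%, against 52.9% of all genes). Of these genes, COX7B2 had its lowest window at the start, centered at 150 bp. The median intensity percentile of the isoforms was 42.1, against 74.9 for the members. COX6B2 had the highest window of all members, 2.03 with probes of 2.26, 1.80 and 2.02 at chr19:60561906-60562361, centered at -4307 bp from its start. Of the 42 windows of COX6B2 10 were enriched, while its start level was -0.07 ± 0.49 (SD over 4 probes). COX8C had a highest window of 1.40 at 673 bp inside (0.88 with normexp) and a lowest of -1.72 at -2766 bp. COX7B2 was the lowest member at the start, -1.70 ± 0.91 (SD over 7 probes). Its probes were -2.51 at 24 bp, -2.64 at 150 bp and -2.47 at 261 bp, and its lowest window of -2.54 at chr4:46734761-46735057 was the lowest of all members. Its intensity percentile was 10.1, so it was among the dim genes, where 73.1% of all genes had an IgG-side window, and the part of its low signal in these ratios was not tested. COX4I2 had the lowest highest window of the complex, 0.39, and a start level of -0.15 ± 0.20 (SD over 5 probes).

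Of the 4 assembly factors of complex IV, 2 had an enriched window (50%, against 57.1% of all genes). These were COX10 (heme O synthesis, 1.09) and the copper chaperone COX17 (1.17). COX17 stood at 0.86 with normexp. It also had an IgG-side window of -2.15, 2363 bp inside the gene, and its start level was 0.11 ± 0.33 (SD over 3 probes). COX15, which makes heme A, had a start level of -0.41 ± 0.52 (SD over 3 probes) and a highest window of 0.92 at 4708 bp inside. COX7A2L, a factor of respiratory supercomplexes, had a highest window of 1.37 and a start level of 0.60.

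In complex V, 8 of 16 members had an enriched window (57.1% of all genes) and 6 an IgG-side window (52.9% of all genes), and the median start level of 0.59 was the highest of the complexes. Of the 5 subunits of the catalytic F1 head, ATP5C1 (gamma, 1.20) and ATP5B (beta, 1.19) had an enriched window, and ATP5E (epsilon) had the lowest highest window of the complex, 0.35. ATP5C1 had a start level of 1.09 ± 0.30 (SD over 4 probes), with probes of 1.47 at -39 bp, 1.04 at 153 bp, 1.09 at 297 bp and 0.74 at 448 bp. Its highest window at chr10:7870037-7870417 is shared with KIN, and with loess the highest window was just under the threshold, at 0.9958. The start levels of ATP5B (0.93), ATP5A1 (0.27), ATP5E (-0.01) and ATP5D (-0.15) covered most of the range of the complex.

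The 10 genes of the membrane part and the stalks all had start levels above 0, with a median of 0.59, and 5 had an enriched window. The 3 genes ATP5G1, ATP5G2 and ATP5G3 encode the same mature protein of the rotating ring, and their start levels were 0.87 ± 0.34 (SD over 7 probes), 0.22 ± 0.33 (SD over 8 probes) and 0.53 ± 0.81 (SD over 5 probes). Their highest windows were 1.18 at 242 bp, 1.45 at -3216 bp and 0.93 at -197 bp. ATP5G3 also held a window of -2.28, at -4513 bp, and 4 of its 25 windows were on the IgG side. ATP5L, subunit g, had 7 of 19 windows enriched, with a highest window of 1.43 at 434 bp after the start and a start level of 0.97 ± 0.38 (SD over 6 probes).

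ATP5J, coupling factor 6 of the stalk, had the highest window of the complex, 1.68, with single probes of 1.75, 1.86 and 1.42 at chr21:26029289-26029612. The same window is the highest of GABPA, the DNA-binding subunit of nuclear respiratory factor 2, the gene on the other side of the start. The window was not placed on the printed bases of ATP5J, since the builds were not joined, and its ATP5J probe lies 246 bp after the array's start. The start level was 0.96 ± 0.48 (SD over 3 probes) for ATP5J and 1.37 over 4 probes for GABPA. Farther out, 6 of the 18 windows of ATP5J were on the IgG side, the lowest at -2.23, at -5029 bp, with probes of -2.22, -2.15 and -2.32. Across the probes of this gene the ratio thus ran past 2-fold in both directions.

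Many members share array windows with a neighboring gene, so a window can be read for more than 1 gene. A window shared with another gene was present for 55 members (65.5%), against 35.3% of all genes, and the highest window was shared for 26. No gene that shared a probe or the highest window with a member was itself a member. Of the 38 members with an enriched window, 10 had their highest window in such shared sequence. For shared highest windows no share over all genes was computed, so these counts describe the members only. When only windows of a single gene were used, 29 members had an enriched window, against 52.6% of all genes with such windows, and 22 had an IgG-side window, against 51.0%.

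Genes that serve the respiratory chain outside the symbol rule were read from a list of 29, of which 28 had values. An enriched window was present in 18 (64.3%, against 57.1% of all genes), and 7 had an IgG-side window (52.9% of all genes). The median start level was 0.34, against 0.29, and 20 of the 28 were above 0 (71.4%, against 73.8% of all genes). The counts by role below are small and were not tested against these shares. The electron carrier CYCS, cytochrome c, had a highest window of 1.32 and a start level of 0.95, and none of its 10 windows was below 0.41. The complex III genes CYC1, cytochrome c1, and UQCR reached 1.90 and 1.24, with start levels of -0.22 and 0.86. Among 8 assembly or expression factors 5 had an enriched window, led by ATPAF2, an F1 assembly factor, at 2.11 (start level 2.28, 2 probes), and LRPPRC, which stabilizes mitochondrial transcripts, at 1.77 (start level 1.23). The start level was above 0 in 6 of these 8 factors, and SURF1 (-0.21) and BCS1L (-0.17) were below 0. Among 10 regulators of respiratory genes 6 had an enriched window and 4 an IgG-side window. GABPA reached 1.68, TFB1M 1.64 and POLRMT 1.64, and NRF1 reached 1.37. The mitochondrial DNA packaging factor TFAM stayed at 0.91 with a window of -2.79 on the IgG side, the coactivator PPARGC1A reached 1.25 and -2.06, and the receptor ESRRA reached 0.17. The start level was above 0 in 7 of the 10 regulators, and those of PPARGC1A and ESRRA were -0.51 and -0.17. Of 7 genes for the ATP synthase inhibitor, nucleotide carriers and electron transfer flavoproteins, 4 had an enriched window, with ATPIF1 at 1.34 and a start level of 1.29. The start level was above 0 in 5 of these 7, and the carriers SLC25A4 and SLC25A5 stood at -0.12 and -0.10.

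Promoter sequence was compared through the RefSeq promoters of 300 bases, which hold an entry for 68 members and for 13404 of all array genes. The median GC content was 61.7% in the members and 63.3% in all genes, and the ratio of observed to expected CpG was 0.84 and 0.78. GATA letters were present in 13 members (19.1%), against 19.0% of the array genes and 24.97% of all 35116 promoters of the table. NRF1 letters were present in 10 members (14.7%, against 3.01% of the array genes and 2.02% of the table). YY1 letters were present in 12 (17.6%, against 4.23% and 2.89%) and ETS letters in 22 (32.4%, against 15.03% and 10.3%). SP1 letters were present in 41 (60.3%, against 60.9% and 45.0%). In the 64 ribosomal and 33 proteasome promoters the ETS shares were 34.4% and 33.3%, so the ETS share was not particular to the members. The YY1 shares there were 9.38% and 12.1%, and the NRF1 shares were 1.56% and 3.03%. By complex, GATA letters were found in 9 of 33 promoters of complex I and in 0 of 11 of complex V, and ETS letters in 8 of 15 of complex IV and in 5 of 33 of complex I.

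**Figure D5:**
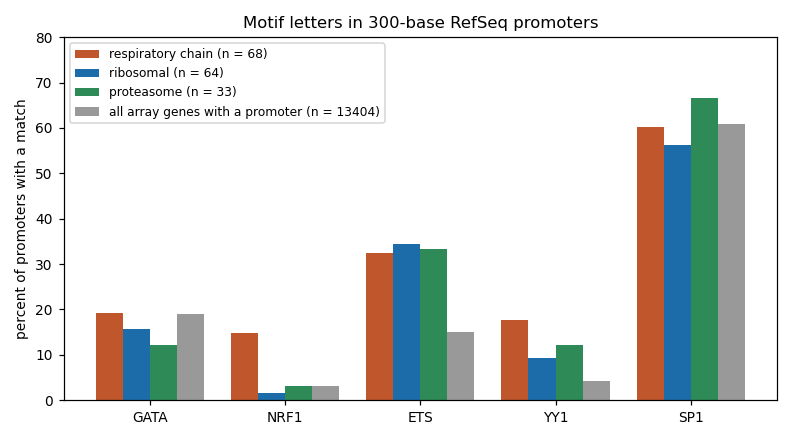
Percent of the 300-base RefSeq promoters with a match on either strand to the letters of each motif, for respiratory chain, ribosomal, proteasome and all array genes with a promoter in the table. The NRF1 share was 14.7% in the respiratory chain against 3.01% in all array genes, and the GATA shares were 19.1% and 19.0%.

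The 13 members with GATA letters had a median start level of 0.48 (quartiles 0.37 and 0.585), and the 55 without them 0.41 (quartiles 0.18 and 0.68), so the ranges overlapped. Of the 13, 6 had an enriched window (46.2%), and of the 55, 27 had (49.1%). Over all genes the median start level was 0.24 with and 0.32 without GATA letters. Members with the ETS letters had a median of 0.39 and those without 0.47, while over all genes the medians were 0.47 and 0.27. Members with NRF1 letters had a median of 0.30 over 10 genes, against 0.47 over 58 without, and those with YY1 letters 0.56 over 12 genes, against 0.41. In the lowest quartile of GC content, with promoters up to 54.7% GC, the 17 members had a median start level of 0.46, and all genes there had 0.11. The other housekeeping families were close to the members there, with 0.44 over 14 ribosomal genes and 0.49 over 8 proteasome genes. In the highest quartile the 9 members had 0.28 and all genes 0.26.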

How the data were processed

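The 2 promoter arrays were analysed, each with Cy5-labeled GATA1 IP DNA and Cy3-labeled IgG DNA. The authors deposited the scanner output. Per the file headers, the intensity values came from Agilent Feature Extraction 9.5.3.1, which subtracted a spatial background surface, detrended and linearly dye-normalized them. The deposited series table holds log10 ratios of Cy5 over Cy3, equal to those of the scanner output. The study used lowess, median normalization and commercial peak calling, which were not used here.

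Here log2 of the processed IP over IgG intensity was centered on the median of each array. Non-uniform spots and probes that stood above background in neither of the channels were removed, which kept 237004 and 236864 probes. Windows held 3 adjacent probes with neighbors within 1000 bp of the center. A gene had the windows that hold a probe annotated to it. Analyses ran in Python 3.11.15 (numpy 2.4.6, pandas 2.3.3) and R 4.3.3 (limma 3.58.1 for normexp and loess), and the window code was tested on simulated ratios. The alternatives were loess, normexp with an offset of 50, the series values, other filters, other window sizes, other thresholds, other start regions, removal of the distance trend and windows of a single gene. All members matched a RefSeq gene by accession.

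Members, lists and rules were chosen with earlier results of these data known. Named genes were, in complexes I, III, IV and V, the 3 members with the highest and the 1 with the lowest highest window, all of complex II, the 5 highest and 5 lowest start levels, the 5 lowest windows, tissue-restricted isoforms, assembly factors and the list of serving genes. Any other gene was named after its values were seen. The values of 1 named member, which the counts include, are not reported here. The number of arrays limits the precision.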

Additional observations from a re-analysis of the deposited data

How the results depend on the processing

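Of 91 values of the families and complexes recomputed under the alternatives, 63 stayed within the tolerance (0.19 for log2 values, 1.5 times for counts) and 28 moved. The numbers of members with an enriched and an IgG-side window were 72 and 50 at 1.5-fold, 7 and 7 at 3-fold and 0 and 0 at 4 robust SDs (all genes: 84.97% and 78.4%, 20.6% and 22.3%, 1.51% and 2.10%). They were 68 and 55 with single probes and 23 and 11 with 5-probe windows (all genes: 86.1% and 81.1%, 34.1% and 33.5%), and normexp left 8 with an IgG-side window (all genes: 23.9%). The share of start windows past the threshold on the IP side was 0% at 3-fold (0 of 3 windows) and 68.4% without the distance trend (13 against 6 windows). At 4 robust SDs no start window passed, so no share is given. The median highest window was 1.38 with single probes (complexes I to V: 1.37, 1.45, 1.12, 1.51 and 1.42) and 0.71 with 5-probe windows (complexes I, III, IV and V: 0.76, 0.46, 0.75 and 0.81). For complex IV it was 0.86 with normexp. With the distance trend removed it was 0.46 for complex II and 0.82 for complex V, and the start level was 0.15. Thresholds and window sizes shift these values by construction, and for the rest the cause was not tested.

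Of 256 values for the 32 named genes, 226 kept their sign and side of 2-fold, 10 fell below it (ATP5C1, COX17, COX6B1 and COX8C under 2 alternatives each, NDUFA4 with normexp and ATP5G2 with 5-probe windows at 0.91), 15 rose past it and 5 changed sign. The highest window of COX7B2 was -0.51 with 5-probe windows, that of NDUFB9 was -0.15 with loess and -0.048 with the trend removed, and that of SDHD was -0.025 and -0.0036. The median raw IP signals of 543 and 544 against 342 and 340 for negative control spots limit the precision of the ratios. No paired analysis was possible because the arrays share no genomic probe and the result comes from no test.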
